A study of Oryza sativa Japonica Group with 4 samples.

Results

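The genes described here encode CCCH zinc finger proteins of rice (Oryza sativa Japonica Group), measured in panicles, the flower and grain bearing heads of the plant. Members were the genes with a symbol or synonym made of C3H and a number that were paired alone with a probe set. Of 53 such genes in the gene reference, 50 had a probe set, out of 17905 genes measured in all. OsC3H38, OsC3H56 and OsC3H67 had no probe set paired with them alone and have no value here. Where a gene had several probe sets, the one brightest on average over the 4 arrays stood for it.

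A CCCH zinc finger is a short fold in which cysteine and histidine residues hold a zinc ion. Proteins with such fingers often bind RNA and act in the decay, splicing or export of messenger RNA, and some bind DNA. In plants, many carry a pair of fingers and take part in responses to drought, salt, hormones and pathogens, in leaf ageing and in seed development. Members with a known role in rice include OsC3H2 (OsDOS), which delays leaf senescence, OsC3H12, which acts in resistance to bacterial blight, and OsC3H20 (Ehd4), which promotes flowering. OsC3H46 (OsLIC) acts in brassinosteroid signalling and shoot angle, and OsC3H60 (U2AF35A) is a subunit of the splicing factor that recognises the end of an intron.

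There were 4 groups with 1 Affymetrix array each. During ripening, at 10 to 15 days from pollination, these were POLA RNAi plants (T2 generation) and wild type. At the early to late meiotic stage they were the polaris (pola) mutant and wild type. The source labels speak of RNAi lines and wild lines in the plural, so several lines may have been pooled. The RNAi line below means the plants of the RNAi array. Each array held RNA pooled from 20 panicles of 10 greenhouse plants, so no group has a replicate, no difference was tested, and precision is limited by having so few arrays. One label of the RNAi array, its description, speaks of wild lines, whereas 3 others call it RNAi, and those were followed. The sources used here do not give the mutant allele, the RNAi construct with its promoter, or the cultivar. No name in the gene tables could be tied to the POLA gene, so its own signal was not checked.

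Values are MAS5 signals, a background-corrected probe brightness on a linear scale. Differences are log2 ratios of signals after 23.4, the 25th percentile of all signals, was added to each. A gene was kept in a comparison when its brighter array gave at least that array's median signal, and was called past 2-fold at a log2 ratio of at least 1 in size. Dim signals differed between arrays: the array medians were 65.7 in RNAi panicles against 163 in wild-type panicles at ripening, and 51.8 in mutant panicles against 124 in wild-type panicles at meiosis. The 75th percentiles were close, from 487 to 521. The GAPDH control transcript had a ratio of 3' to 5' signal of 3.32 in RNAi panicles against 2.01 in wild-type panicles at ripening, and 4.22 in mutant panicles against 2.04 in wild-type panicles at meiosis. Ratios against a dim signal are therefore also given with every signal below the highest array median (163), the common floor, raised to it. These floored folds are not lower bounds over all settings. For OsC3H40 in the RNAi line over wild type, the log2 ratio was 4.57 with the floor. It was 4.09 with the median of all signals added in place of the 25th percentile. The part of these array differences in the results on dim members was not tested. Fewer cells of a type and less RNA per cell cannot be told apart in pooled panicles.

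Most CCCH genes read above the median of their arrays, as did most of all genes measured. The median signal over the 50 members was 755 in RNAi panicles against 845 in wild-type panicles at ripening, and 884 in mutant panicles against 782 in wild-type panicles at meiosis. At or above their array's median were 48 members in RNAi panicles against 43 in wild-type panicles at ripening, and 48 in mutant panicles against 47 in wild-type panicles at meiosis. The shares of all genes were 88.8% and 83.7% for the ripening arrays in that order, and 88.1% and 84.5% for the meiotic arrays. On all 4 arrays, 40 members were at or above the common floor of 163, and 10 were below it on at least 1 array, while 68.8% of all genes were at or above it on all 4. From their highest to their lowest array, 36 members (72%) differed by less than 2-fold, against 49.1% of all genes, a description and not a test. Dim genes were not left out of these shares. At or above the 75th percentile of their array were 35 members in RNAi panicles against 32 in wild-type panicles at ripening. At meiosis they were 34 in mutant panicles against 36 in wild-type panicles. The shares of all genes were 57.6% to 58.5% over the 4 arrays. The part of brightness in the spans was not tested. Ehd4 (OsC3H20) had the smallest span of the members, 1.06-fold, with signals of 1479 in RNAi panicles against 1422 in wild-type panicles at ripening, and 1478 in mutant panicles against 1505 in wild-type panicles at meiosis. The next smallest span was 1.11-fold, in OsC3H31. In all, 13 members (26%) passed 2-fold in at least 1 of 4 comparisons and 37 in none, while 42.1% of all genes did so in at least 1.

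**Figure D1:**
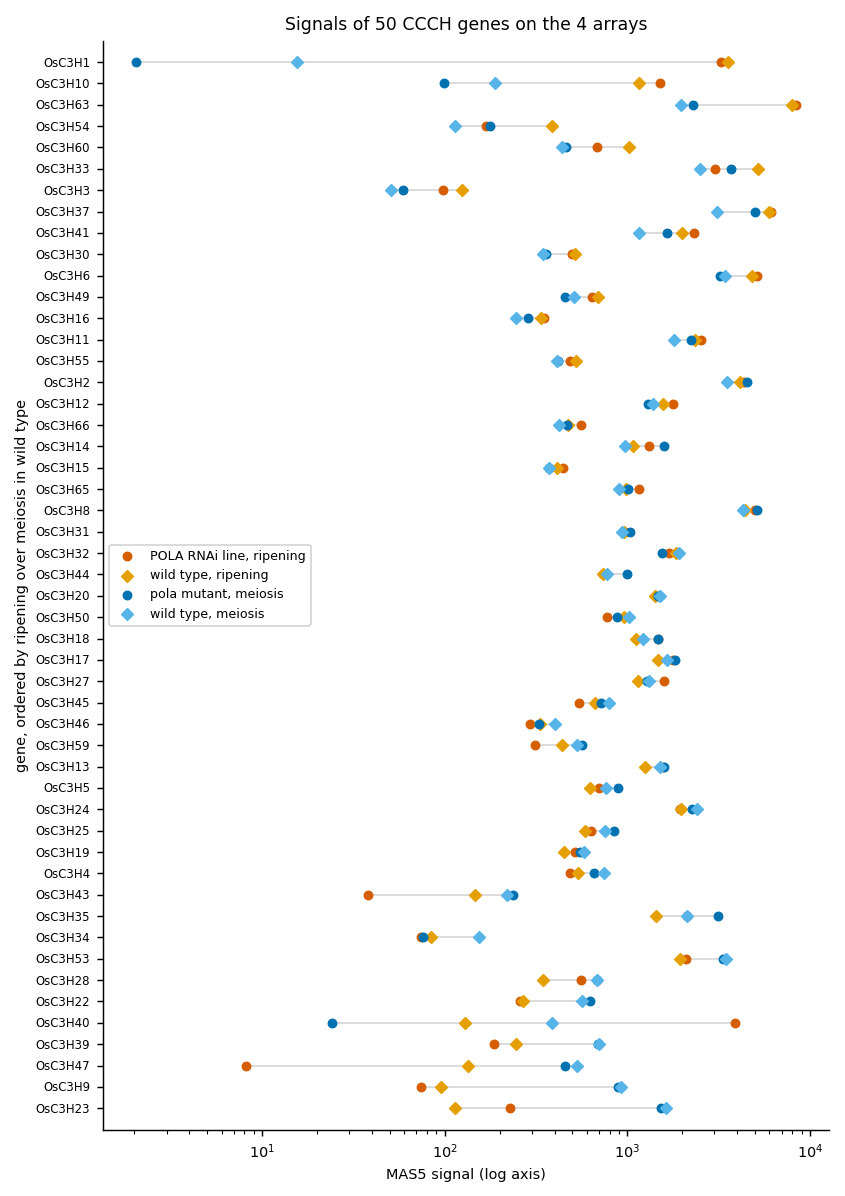
MAS5 signal (log axis) of each of the 50 CCCH genes on the 4 arrays, with circles for the RNAi line and the mutant and diamonds for wild type, ordered by the ripening over meiosis ratio in wild type. The 4 points of most genes lie close together, while OsC3H1, OsC3H40 and OsC3H47 have the widest spans.

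OsC3H40 differed from wild type in both pola lines, in opposite directions. Its signals were 3867 in RNAi panicles against 129 in wild-type panicles at ripening, and 24.2 in mutant panicles against 387 in wild-type panicles at meiosis. The RNAi array was thus the highest of the 4 and the mutant array the lowest, with both wild-type arrays between them. The log2 ratio was 4.67 for the RNAi line over wild type, or 23.7-fold higher with the common floor. It was -3.11 for the mutant over wild type, or 2.37-fold lower with the floor. The mutant signal lay below its array's median and the wild-type ripening signal below its own, so both folds rest on a dim side. OsC3H40 had the fourth highest RNAi ratio, rank 4 of 16291 kept genes, and rank 23 of 16082 from the lowest in the mutant comparison. Of 15349 genes kept in both comparisons, 253 were past 2-fold lower in both and 48 higher in both. In opposite directions, 26 were lower in the mutant and higher in the RNAi line, and 18 went the other way round. OsC3H40 had the highest RNAi ratio of those 26, and with the common floor the class held 9 genes, OsC3H40 among them. The gene has 1 probe set, so no second probe set bears on these values, and this member was chosen with its values known.

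The mutant comparison addresses which transcripts differ at meiosis when the gene is mutated. Apart from OsC3H40, no kept CCCH gene passed 2-fold in the mutant. Of 49 kept members, 0 were higher and 1 was lower, against 2.22% of all 16082 kept genes higher and 4.26% lower, or 6.48% in either direction. The median log2 ratio of the members was 0.05, against 0.04 for all kept genes, and 44 of 49 lay within 1.5-fold of wild type, or 89.8%, against 83.2% of all genes. Leaving out OsC3H40, the ratios lay between -0.84 and 0.69. The balance of all genes turned with the scaling: 4.52% were higher and 1.36% lower after quantile normalization, where 2 members were higher and 1 lower. Those 2 were OsC3H3, with a ratio of 1.05 in place of 0.15, and OsC3H54, with 1.09 in place of 0.54, both dim at meiosis.

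The highest mutant ratios among the members belonged to OsC3H37 and OsC3H14. OsC3H37 had signals of 5018 in mutant panicles against 3091 in wild-type panicles at meiosis, a log2 ratio of 0.69, and 6107 in RNAi panicles against 5936 in wild-type panicles at ripening. OsC3H14 had 1578 in mutant panicles against 972 in wild-type panicles at meiosis, also a ratio of 0.69, and 1309.5 in RNAi panicles against 1080.2 in wild-type panicles at ripening. For both genes the mutant array was the higher of the meiotic pair without reaching 2-fold, and both reached it when the median ratio of all probe sets was set to 0. The makorin gene OsC3H41 (MKRN), whose family of proteins joins CCCH fingers to a ubiquitin ligase domain, read 1641 in mutant panicles against 1165 in wild-type panicles, a ratio of 0.49. It was named after its values were seen. OsC3H34 had the lowest ratio after OsC3H40, -0.84, with 75.7 in mutant panicles against 153 in wild-type panicles, both below the common floor.

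**Figure D2:**
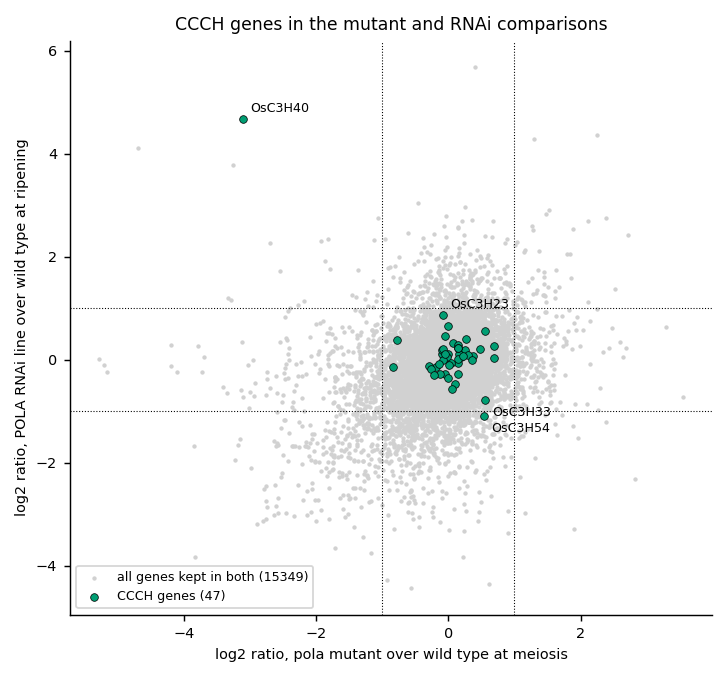
Log2 ratio of the pola mutant over wild type at meiosis (x axis) against that of the POLA RNAi line over wild type at ripening (y axis), for 47 CCCH genes kept in both comparisons (green) and all 15349 genes kept in both (grey), with dotted lines at 2-fold. OsC3H40 lies alone among the members at -3.11 and 4.67, and OsC3H54 just below the lower line at -1.09.

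The RNAi comparison addresses which transcripts differ in the ripening panicle when the gene is silenced. Of 48 kept members, 1 was higher (OsC3H40) and 1 was lower (OsC3H54), against 3.54% of all 16291 kept genes higher and 7.2% lower, or 10.7% in either direction. The members' median was 0.06, against 0.07 for all kept genes, and 43 of 48 lay within 1.5-fold, or 89.6%, against 75.4% of all genes. After quantile normalization 7.91% of all genes were higher and 3.33% lower, and among the members 2 were higher and none lower. OsC3H54 had signals of 168 in RNAi panicles against 385 in wild-type panicles at ripening, and 176 in mutant panicles against 114 in wild-type panicles at meiosis. Its wild-type ripening array stood above the other 3. The RNAi ratio of -1.09 became -0.67 after quantile normalization, so the call rests on the scaling.

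OsC3H23 was the member added after quantile normalization. It had signals of 227 in RNAi panicles against 114 in wild-type panicles at ripening, with a ratio of 0.86 that became 1.60, and the wild-type signal was below its array's median. OsC3H33 went the other way without reaching 2-fold, with 3026 in RNAi panicles against 5223 in wild-type panicles at ripening, a ratio of -0.78. Its signals at meiosis were 3676 in mutant panicles against 2494 in wild-type panicles, a ratio of 0.56. OsC3H47 and OsC3H43 were not kept in the RNAi comparison. OsC3H47, whose overexpression raises drought tolerance in rice, read 8.20 in RNAi panicles against 134 in wild-type panicles at ripening. OsC3H43 read 38.3 in RNAi panicles against 147 in wild-type panicles. All 4 of these signals were below the median of their arrays.

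OsC3H10, OsC3H12, OsLIC and OsC3H50 did not pass 2-fold against wild type in either pola line on their chosen probe sets. The drought gene OsC3H10 read 99.6 in mutant panicles against 188 in wild-type panicles at meiosis, a ratio of -0.78. OsC3H12, the bacterial blight resistance gene, read 1786 in RNAi panicles against 1563 in wild-type panicles at ripening, and 1293 in mutant panicles against 1386 in wild-type panicles at meiosis. OsLIC (OsC3H46), the brassinosteroid signalling gene, read 292 in RNAi panicles against 334 in wild-type panicles at ripening, a ratio of -0.18. At meiosis it read 330 in mutant panicles against 400 in wild-type panicles, a ratio of -0.26. OsC3H50 read 774 in RNAi panicles against 960 in wild-type panicles at ripening, a ratio of -0.30. At meiosis it read 880 in mutant panicles against 1026 in wild-type panicles, a ratio of -0.22. The last 3 passed it in no comparison between stages either.

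**Figure D3:**
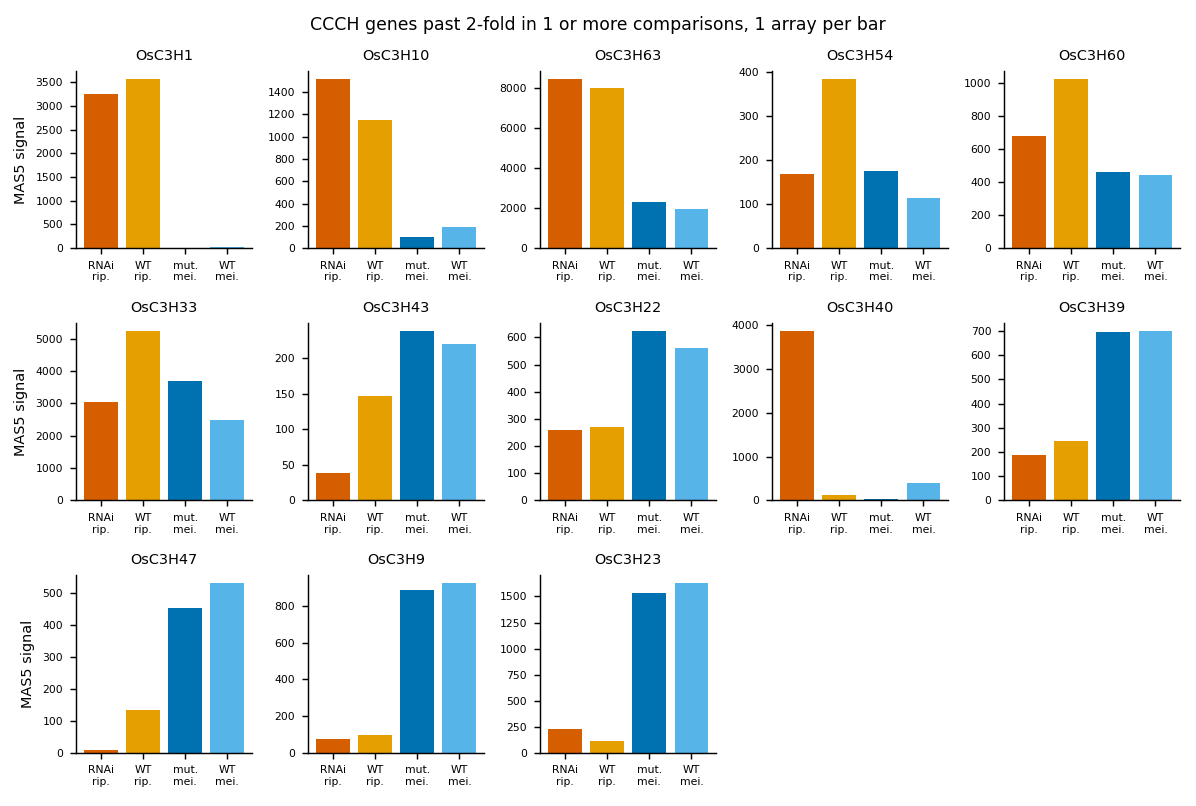
MAS5 signals (linear axes from 0, each gene with its own scale) of the 13 CCCH genes past 2-fold in at least 1 comparison, with 1 bar per array: RNAi line and wild type at ripening (rip.), then mutant and wild type at meiosis (mei.). Both ripening bars are above both meiotic bars in OsC3H1, OsC3H10, OsC3H60 and OsC3H63 and below them in OsC3H9, OsC3H22, OsC3H23, OsC3H39, OsC3H43 and OsC3H47.

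More CCCH genes passed 2-fold between stages than between a pola line and wild type, as did more genes of the whole array. In wild type, 6 of 49 kept members were past 2-fold higher at ripening and 5 lower, against 15.3% of all 16235 kept genes higher and 16.3% lower. The members called made up 22.4% of those kept, and 31.6% of all kept genes were called in either direction. The members' median ratio was -0.08 and that of all genes 0.00. With the median ratio of all probe sets set to 0, 4 members were higher and 8 lower, against 12.6% and 20.3% of all genes. The same question can be asked of the arrays without wild type, the RNAi line at ripening over the mutant at meiosis, which differ in stage and in line. There 4 of 50 members were higher and 6 lower, against 15.7% of all 16766 kept genes higher and 16.8% lower, or 32.5% in either direction. The members' median there was -0.02.

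Higher at ripening in both pairs were OsC3H1, OsC3H10 and OsC3H63. OsC3H1 read 3245 in RNAi panicles against 3566 in wild-type panicles at ripening, and 2.04 in mutant panicles against 15.6 in wild-type panicles at meiosis. Its 2 ripening arrays stood far above the meiotic arrays, where the gene was near background. With the common floor it was 21.8-fold higher at ripening for wild type and 19.9-fold higher in the pola pair. OsC3H10, which raises drought tolerance when overexpressed in rice, read 1516 in RNAi panicles against 1152 in wild-type panicles at ripening, and 99.6 in mutant panicles against 188 in wild-type panicles at meiosis. Its log2 ratios were 2.48 in wild type and 3.65 in the pola pair, or 9.28-fold with the common floor for the pola pair. OsC3H63 had the highest mean signal of the members, with 8424 in RNAi panicles against 8000 in wild-type panicles at ripening, and 2280.4 in mutant panicles against 1956 in wild-type panicles at meiosis. Its ratios were 2.02 in wild type and 1.87 in the pola pair, and no signal of this probe set was below the floor. Its second probe set read 4.79 in RNAi panicles against 68.1 in wild-type panicles at ripening, and 12.3 in mutant panicles against 28.0 in wild-type panicles at meiosis, all below the floor. With the mean over both probe sets the pola pair ratio was 0.77, under 2-fold.

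Lower at ripening in both pairs were OsC3H9, OsC3H23, OsC3H39 and OsC3H47. OsC3H23 read 227 in RNAi panicles against 114 in wild-type panicles at ripening, against 1530 in mutant panicles against 1625 in wild-type panicles at meiosis. Its ratios were -3.58 for wild type, or 9.95-fold lower with the common floor, and -2.63 in the pola pair. OsC3H9 read 74.6 in RNAi panicles against 95.7 in wild-type panicles at ripening, against 889 in mutant panicles against 924 in wild-type panicles at meiosis. With the common floor OsC3H9 was 5.65-fold lower for wild type and 5.44-fold lower for the pola pair. For both genes the 2 meiotic arrays were close to each other and well above the ripening arrays. OsC3H39 read 187 in RNAi panicles against 245 in wild-type panicles at ripening, against 695 in mutant panicles against 699 in wild-type panicles at meiosis, with ratios of -1.43 and -1.77. The drought gene OsC3H47 read 453 in mutant panicles against 530 in wild-type panicles at meiosis, with its ripening signals given above. Its ratios were -1.82 in wild type and -3.92 in the pola pair, or 3.24-fold and 2.78-fold lower with the common floor.

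OsC3H22 and OsC3H23 are neighbours in the gene reference, with no protein-coding gene between them. OsC3H22 read 258 in RNAi panicles against 270.0 in wild-type panicles at ripening, against 623 in mutant panicles against 563 in wild-type panicles at meiosis. The ratio was -1.20 in the pola pair and just under 2-fold in wild type, at -0.9985, and both meiotic arrays again stood above both ripening arrays. Whether their probe sets detect each other's transcripts was not tested. The other close group of members, OsC3H4, OsC3H5 and OsC3H6, with 3 and 1 protein-coding genes between them, did not share a direction. OsC3H6 had stage ratios of 0.47 in wild type and 0.67 in the pola pair, and OsC3H4 of -0.46 and -0.42. None of these 3 passed 2-fold.

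Some members passed 2-fold between stages in 1 pair. In wild type alone these were OsC3H33, OsC3H54 and OsC3H60, all higher at ripening. With the median ratio of all probe sets set to 0, OsC3H33 had 0.86 and OsC3H60 had 0.97, both under 2-fold, and OsC3H33 had 0.99 with the mean over its probe sets. U2AF35A (OsC3H60) read 678 in RNAi panicles against 1022 in wild-type panicles at ripening, and 459 in mutant panicles against 441 in wild-type panicles at meiosis, with stage ratios of 1.17 in wild type and 0.54 in the pola pair. For OsC3H33 the ratios were 1.06 in wild type and -0.28 in the pola pair, and for OsC3H54 they were 1.57 and -0.06. In the pola pair alone, OsC3H22 and OsC3H43 were lower at ripening. OsC3H22 also passed 2-fold lower in wild type after quantile normalization, at -1.37, and with the common floor, at -1.06. OsC3H43 had 238 in mutant panicles against 220 in wild-type panicles at meiosis and a ratio of -2.08 that was -0.54 with the common floor. Whether the pairs differ was not tested.

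OsC3H40 was called in both stage comparisons with opposite signs, at -1.43 in wild type and 6.35 in the pola pair. It was left out with its values known. Without it, the stage ratios of 48 members correlated with a Pearson r of 0.92 and a Spearman rho of 0.82 between the pairs. With it, r was 0.70 and rho 0.73 over 49 members. Over 15977 genes r was 0.89 and rho 0.84. The pairs share no array, and the genes of each are read from the same 4 arrays and are not independent replicates. Of the members called in wild type, 63.6% were called the same way in the pola pair, and of those called in the pola pair, 70% were called the same way in wild type. Over all genes these shares were 76.0% and 75.1%.

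Markers of several tissues differed between stages on the same arrays. Of 7 endosperm markers, glutelin and other storage protein genes and a starch synthase gene, 6 were higher at ripening in wild type. The summed signal of the 7 was 265555 in RNAi panicles against 201346 in wild-type panicles at ripening, and 175 in mutant panicles against 500.4 in wild-type panicles at meiosis. GLUB-4, the marker not higher at ripening, and RA14 make up most of the wild-type meiotic sum. They read 243 and 146 there, against 20.4 and 24.3 in mutant panicles. GLUA-1 and RA5 were higher in mutant than in wild-type panicles at meiosis. Of 7 measured genes matched to the tapetum list, in which the name OSCP1 matched 2 genes and UDT1 was not measured, 5 were lower and 1 higher at ripening in wild type, with summed signals of 28700.2 in RNAi panicles against 23642 in wild-type panicles at ripening, and 92742 in mutant panicles against 64033 in wild-type panicles at meiosis. One of the OSCP1 genes makes up most of the ripening sums, and without it they were 168 in RNAi panicles against 537 in wild-type panicles at ripening, and 88458 in mutant panicles against 61066 in wild-type panicles at meiosis. Of the 4 germ cell markers, 3 were lower, with summed signals of 2905 in RNAi panicles against 2706 in wild-type panicles at ripening, and 6906 in mutant panicles against 7972 in wild-type panicles at meiosis. The 3 embryo and maturation markers were all higher at ripening in wild type. Their summed signals were 78951 in RNAi panicles against 56092 in wild-type panicles at ripening, and 924 in mutant panicles against 492 in wild-type panicles at meiosis. RAB21 makes up most of the mutant sum, with 668 in mutant panicles against 47.5 in wild-type panicles at meiosis. There EM (110 against 224) and LEA19 (146 against 220) were lower in mutant than in wild-type panicles. The green tissue list had 2 measured genes, summing to 34731 in RNAi panicles against 32305 in wild-type panicles at ripening, and 25452 in mutant panicles against 18225 in wild-type panicles at meiosis. None of these markers was listed at 0. Their part in the stage differences of the CCCH genes was not tested.

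**Figure D4:**
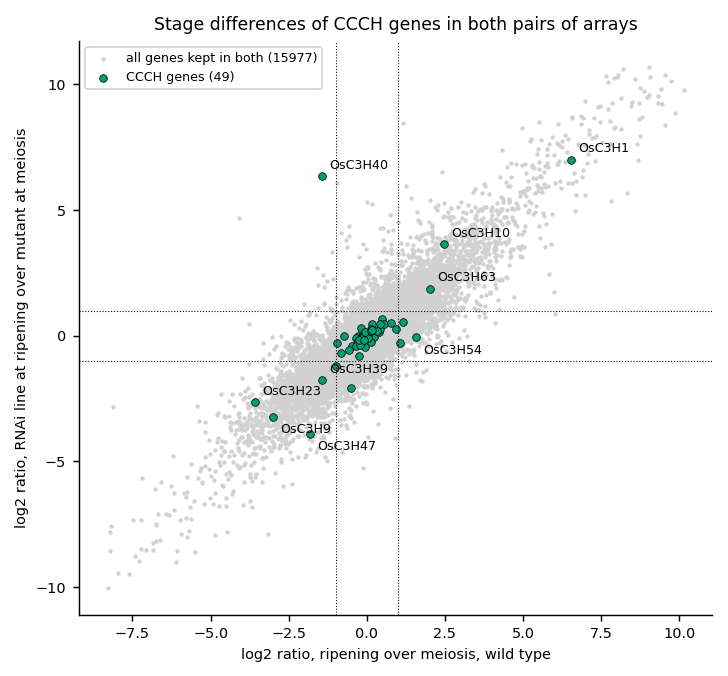
Log2 ratio of ripening over meiosis in wild type (x axis) against the RNAi line at ripening over the mutant at meiosis (y axis), for 49 CCCH genes kept in both (green) and all 15977 genes kept in both (grey), with dotted lines at 2-fold. OsC3H40 lies farthest from the diagonal among the members, at -1.43 and 6.35, and OsC3H47, OsC3H54, OsC3H43 and OsC3H33 lie off it by smaller distances.

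On their chosen probe sets, the other members among the 5 with the highest mean signal stayed within 2-fold over the 4 arrays. OsC3H8 read 5029 in RNAi panicles against 4405 in wild-type panicles at ripening, and 5110.0 in mutant panicles against 4276 in wild-type panicles at meiosis. OsC3H6 read 5143 in RNAi panicles against 4792 in wild-type panicles at ripening, and 3226 in mutant panicles against 3446 in wild-type panicles at meiosis. The senescence gene OsDOS (OsC3H2) read 4341 in RNAi panicles against 4137 in wild-type panicles at ripening, and 4532 in mutant panicles against 3508 in wild-type panicles at meiosis. None of these 3 stood apart on any array on the chosen probe set, whereas a second probe set of OsDOS, given below, did.

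The 37 members past 2-fold in no comparison had ratios between -0.84 and 0.69 in the mutant comparison and between -0.47 (OsC3H59) and 0.66 (OsC3H28) in the RNAi comparison. For ripening over meiosis in wild type, 36 of them were kept, with ratios between -0.95 (OsC3H28) and 0.94 (OsC3H37). In the pola pair their ratios lay between -0.81 (OsC3H59) and 0.67 (OsC3H6). The members that a comparison did not keep were OsC3H1 in the mutant comparison, OsC3H43 and OsC3H47 in the RNAi comparison and OsC3H3 in the wild-type stage comparison.

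Several of the 37 lay close to 2-fold between stages. OsC3H28 read 556 in RNAi panicles against 344 in wild-type panicles at ripening, and 683 in mutant panicles against 686 in wild-type panicles at meiosis, so that its wild-type ripening array was the lowest. OsC3H53 read 2087 in RNAi panicles against 1942 in wild-type panicles at ripening, and 3333 in mutant panicles against 3465 in wild-type panicles at meiosis, with stage ratios of -0.83 in wild type and -0.67 in the pola pair. Both ripening arrays were thus below both meiotic arrays for OsC3H53 on the chosen probe set. On another of its probe sets, wild type at ripening (369) was above the mutant at meiosis (335). On its chosen probe set, OsC3H35 was higher than wild type on the array of each pola line without reaching 2-fold. It read 2121 in RNAi panicles against 1442 in wild-type panicles at ripening, a ratio of 0.55. At meiosis it read 3134 in mutant panicles against 2131 in wild-type panicles, also a ratio of 0.55. Its other probe sets differed: the ratios were 0.88 for the RNAi line and 0.82 for the mutant on 1, and -0.28 and -0.48 on the other. OsC3H28, OsC3H35 and OsC3H53 were named after their values were seen.

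OsDOS had a second probe set that read differently. It gave 3538 in RNAi panicles against 147 in wild-type panicles at ripening, and 1272 in mutant panicles against 1250.1 in wild-type panicles at meiosis. The wild-type ripening array was the low one, with log2 ratios of 4.39 for the RNAi comparison and -2.90 for the wild-type stages, where the chosen probe set had 0.07 and 0.24. The name of the chosen probe set ends in _s_at, the Affymetrix mark for probes shared by several transcripts, and that of the second does not. Which of them reads OsDOS was not tested.

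Of the 50 members, 14 had several probe sets, with 20 besides the chosen ones. Of these, 14 were kept in the RNAi comparison, and 11 had the same call as the chosen probe set. The other 3 belonged to OsC3H2, OsC3H12 and OsC3H15. OsC3H12 had 37.7 in RNAi panicles against 258 in wild-type panicles at ripening on one of its other probe sets, a ratio of -2.20 against 0.19 on the chosen one. In the mutant comparison 12 of 14 had the same call, and those of OsC3H15 and OsC3H65 did not. OsC3H15 read 30.3 in mutant panicles against 172 in wild-type panicles at meiosis on the probe set not chosen, a ratio of -1.86. On the chosen one it read 370.5 in mutant panicles against 372 in wild-type panicles. For ripening over meiosis in wild type, 11 of 14 had the same call, and those of OsC3H2, OsC3H12 and OsC3H33 did not. In the pola pair 13 of 14 had the same call, and that of OsC3H2 did not.

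**Figure D5:**
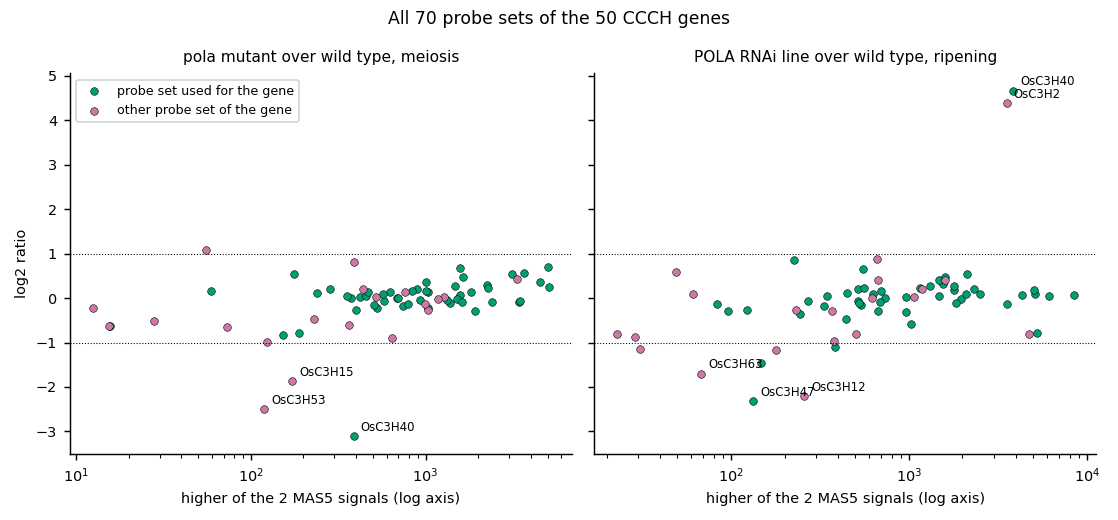
Log2 ratio against the higher of the 2 MAS5 signals (log axis) for all 70 probe sets of the 50 CCCH genes, with the mutant over wild type at meiosis on the left and the RNAi line over wild type at ripening on the right, and with the probe set used for each gene in green. At high signal the points lie near 0 apart from OsC3H40 and the second probe set of OsC3H2, at 4.67 and 4.39 in the RNAi comparison.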

How the data were processed

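The deposited values are linear intensity values that the authors made with MAS5, per the submitters' processing notes. The sources used here give no MAS5 version. The 2% trimmed mean was 500.1 on each array. Control probe sets (187) were set aside, leaving 57194, of which 22436 were paired with 1 gene by the platform annotation. Names came from a RefSeq gene table (assembly GCF_034140825.1). It carries names and no descriptions or sequences, so the lists defined by description words, the grouping by finger spacing and the promoter motifs of the design were not analysed here.

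The pseudocount, filter and 2-fold threshold are given with the results. All members were examined. Signals are given for OsC3H40, members past 2-fold, the 5 with the highest mean signal and members with a known role, and others are said to be named after their values were seen or are given as extremes of a stated range. Members, lists and settings were chosen with earlier results of these data known. The steps were tested on simulated data, in which bright genes were changed 4-fold and noise was equal on all arrays. Changes in dim genes, changes near 2-fold and differences in background between arrays were not simulated. Alternatives were 3 scalings, 2 pseudocounts, a common floor, 2 filters, a 4-fold threshold and 2 choices of probe set. Python 3.11.15, numpy 2.4.6, pandas 2.3.3, statsmodels 0.14.6 and matplotlib 3.10.9 were used.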

Additional observations from a re-analysis of the deposited data

Results flagged for a closer look

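OsC3H40 stood out because its differences went opposite ways. Its log2 ratio was -3.11 for the mutant over wild type at meiosis and 4.67 for the RNAi line over wild type at ripening. Between stages it was 6.35 for the RNAi line over the mutant and -1.43 in wild type. With 1 array per group the difference between these effects was not tested. The stage ratios and the ratios to wild type restate the same 4 signals, so they are not separate pieces of evidence.

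Probe sets that were not chosen for their gene gave further signals above wild type. The second probe set of OsC3H2 had a log2 ratio of 4.39 for the RNAi line over wild type at ripening. A second probe set of OsC3H65 had a ratio of 1.09 for the mutant over wild type at meiosis, with signals of 55.3 in mutant panicles against 13.5 in wild-type panicles, both far below the common floor.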

How the results depend on the processing

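The 4 OsC3H40 ratios kept their sign and stayed past 2-fold under all 8 alternatives applied to single genes, from -3.71 to -1.25 for the mutant, 4.09 to 5.17 for the RNAi line, -1.98 to -1.08 for stage in wild type and 4.57 to 7.01 for stage in the pola pair. The 2 choices of probe set could not change the OsC3H40 ratios, because the gene has 1 probe set. Of 20 other calls, 15 held under all 8 alternatives. There too, the choices of probe set could not change the calls of members with 1 probe set. The exceptions were OsC3H54 in the RNAi comparison, OsC3H33 and OsC3H60 for stage in wild type, and OsC3H43 and OsC3H63 for stage in the pola pair. Of 88 recomputed counts of members, 66 stayed within 1.5 times the main count. In the mutant comparison, 2 members were higher under each of the 3 scalings (4.52% to 5.07% of all genes), 0 were lower with the 75th percentile filter, which leaves out OsC3H40 (0.651% of all genes), and 2 were lower with the mean over probe sets (4.31%). In the RNAi comparison, 3 were higher with the median ratio set to 0 and with loess centring (9.58% and 7.46% of all genes), and 2 with quantile normalization, the mean over probe sets and unique probe sets first (7.91%, 3.33% and 3.79%). There, 0 were lower with the 3 scalings, the median pseudocount, the 75th percentile filter and the 4-fold threshold (1.61% to 4.14%), and 3 without a filter (9.94%). For stage in wild type, 3 were higher and 2 lower at 4-fold (6.57% and 5.77%), and 8 were lower under each of the 3 scalings (16.8% to 20.3%). In the pola pair all counts stayed within 1.5 times. Setting the median ratio to 0 moved the median of all kept genes to 0.35 in the mutant comparison, 0.47 in the RNAi comparison and -0.20 for stage in wild type. The causes of these changes were not tested. No paired analysis was possible because each group has 1 array, which also leaves no array to omit.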

Other observations

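Genes known to act with some members were looked up by symbol, a list chosen after the members' values were seen. U2AF65A and U2AF65B, the partners of U2AF35 in splicing, did not pass 2-fold in any of the 4 comparisons, and U2AF65B came closest with -0.95 for ripening over meiosis in wild type. The other 3 genes of the splicing list, RSZ23, RSZP21 and RSZP21A, did not pass it either, and neither did PAB1, a poly(A)-binding protein gene.

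Around Ehd4, whose own signals were nearly level, 3 heading date genes were measured. The florigen gene Hd3a read 960.0 in RNAi panicles against 955 in wild-type panicles at ripening, and 101 in mutant panicles against 125 in wild-type panicles at meiosis, a ratio of 2.72 for ripening over meiosis in wild type. Ehd3 went the other way with -1.41. Hd1 read 83.1 in mutant panicles against 191 in wild-type panicles at meiosis, a ratio of -1.01. Its mutant signal was below the common floor of 163, and raised to the floor Hd1 would not pass 2-fold. Of all kept genes, 4.26% were past 2-fold lower in the mutant.

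In the brassinosteroid list around OsLIC, the receptor gene BRI1 had a stage ratio of -1.30 in wild type and BZR1, a transcription factor gene, -1.37. BZR1 read 685 in mutant panicles against 1338 in wild-type panicles at meiosis, a ratio of -0.94. Among the ILI genes of small helix-loop-helix proteins, ILI6 was past 2-fold lower in both pola lines, with -1.78 for the mutant and -1.41 for the RNAi line, and ILI4 was lower in the RNAi line with -1.61. ILI6 read 47.5 in mutant panicles against 220 in wild-type panicles at meiosis and 82.0 in RNAi panicles against 256 in wild-type panicles at ripening, and ILI4 read 66.3 in RNAi panicles against 249.9 in wild-type panicles at ripening. These signals in the pola lines were below the common floor of 163, and with them raised to it neither gene would pass 2-fold. Of all kept genes, 4.26% were lower in the mutant and 7.2% in the RNAi line. Of the 15349 kept in both comparisons, 253 were lower in both. For ripening over meiosis in wild type, 16.3% of all kept genes were lower. OsLIC itself had a stage ratio of -0.24 in wild type.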
